A study of Mus musculus with 6 samples.

Results

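The genes described here encode the TGF-β ligands (*Tgfb1*, *Tgfb2* and *Tgfb3*), their receptors (*Tgfbr1*, *Tgfbr2* and *Tgfbr3*) and the latent TGF-β binding proteins (*Ltbp1*, *Ltbp2*, *Ltbp3* and *Ltbp4*). They were chosen by name, and the 10 names matched 11 of the 34745 gene records, because *Ltbp4* is listed under a pair of identifiers. RNA was sequenced from cardiac fibroblasts of left ventricular myocardium on Day 7 after myocardial infarction (MI), which was induced by permanently tying off the LAD coronary artery. The 3 KO-labelled libraries came from KDM5B-KO mice, in which CRISPR/Cas9 removed part of the JmjC domain of the histone demethylase gene *Kdm5b* and shifted the reading frame. The 3 WT-labelled libraries came from littermate WT mice. Mice of both genotypes were C57BL/6 of 8 to 10 weeks, stated to be male, and both had undergone MI, so neither label is an uninjured control. The sources used here do not say whether a library holds 1 animal or several, and p-values therefore measure only the spread between these libraries.

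The libraries held between 12025403 and 15329427 counts. *Kdm5b* itself was at 98.0, 107 and 105 CPM in the KO-labelled libraries and at 108, 128 and 123 CPM in the WT-labelled libraries, where CPM is the count scaled to a common library total by TMM (log2 fold change -0.22, SE 0.07, adjusted p = 0.0574 from edgeR). The difference did not pass the threshold. Over 14 alternatives it ranged from -0.29 to -0.15, with an adjusted p from 0.0188 to 0.175. With the libraries scaled on fibroblast markers it was 0.21 (adjusted p = 0.0358 from edgeR), beside a median of 0.42 for all genes tested. Its call and direction thus depended on the processing. Moreover, a count over the whole gene does not isolate the deleted stretch, and groups are called by their labels. *Xist*, transcribed from the inactive X chromosome, and the Y-linked *Ddx3y* were both counted in all 6 libraries, at no less than 64.4 CPM, so the *Xist* level goes against the stated sex under both labels. Fibroblast markers were abundant in every library, with a summed level of 29568 to 34408 CPM in the KO-labelled and 41407 to 44007 CPM in the WT-labelled libraries, and 14 of the 15 passed the threshold downward (median log2 fold change -0.42). Of 19 endothelial markers, 16 passed upward, none was at 0, and their summed level was 2186 to 2990 CPM against 681 to 688 CPM. These shifts moved with the label, beside 17.7% of all genes tested that passed upward and 12.5% that passed downward. Their part in the results below was not tested.

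TGF-β is made as a precursor whose propeptide stays wrapped around the mature ligand and keeps it silent. Latent binding proteins are linked to the propeptide inside the cell and anchor the complex on fibrillin and fibronectin fibres, from which integrins and proteases release the ligand. The free ligand binds TGFBR2, which then phosphorylates TGFBR1, and TGFBR1 in turn phosphorylates SMAD2 and SMAD3. TGFBR3, or betaglycan, presents ligand to TGFBR2 and matters most for TGF-β2. In the injured heart, TGF-β is known for turning fibroblasts into contractile, collagen-producing myofibroblasts.

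The ligand genes moved in opposite directions. *Tgfb1* was higher in the KO-labelled libraries, at 33.3 ± 1.19 FPKM against 22.2 ± 0.936 FPKM (mean ± SD, n = 3 libraries each), while *Tgfb2*, *Tgfb3* and all 4 latent binding protein genes were lower by 15.3% to 30.0%. None of the 3 receptor genes passed the threshold. In counts, 7 of the 11 records passed an adjusted p of 0.05 in edgeR's quasi-likelihood test, 1 of them upward and 6 downward, where 30.2% of all 14084 genes tested passed (17.7% upward and 12.5% downward). The libraries of the 2 labels did not overlap for 8 of the 11 records, against 47% of all genes tested. The median log2 fold change was -0.24 over the 11 records and -0.02 over all genes tested. In bulk libraries such as these, fewer cells of a type and less RNA per cell cannot be told apart.

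**Figure D1:**
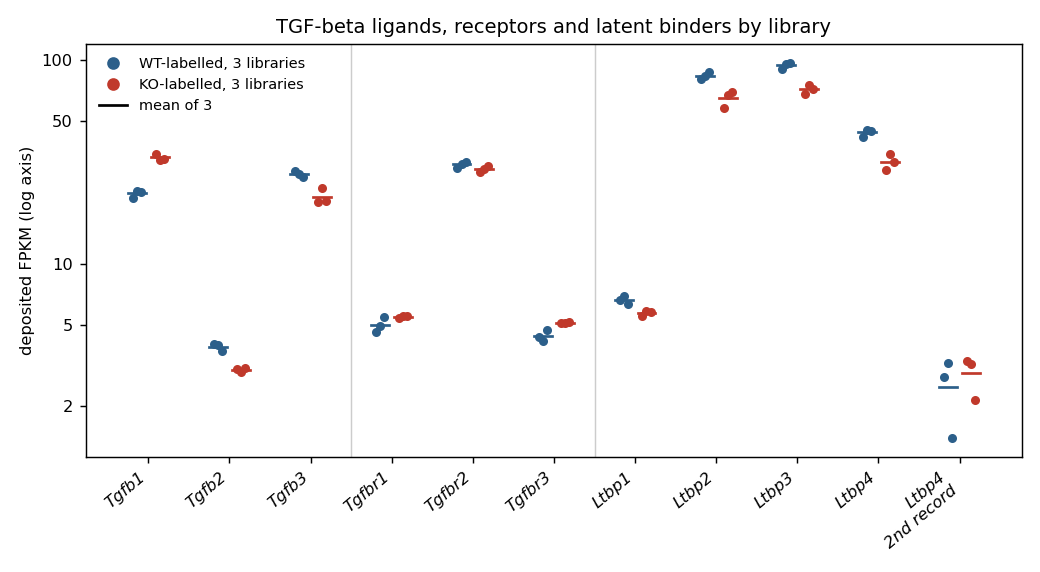
Deposited FPKM (log axis) of the 11 records in each library, with blue points for the 3 WT-labelled and red points for the 3 KO-labelled libraries and a bar at each mean. *Tgfb1* sits above its WT-labelled points in all 3 KO-labelled libraries, while *Tgfb2*, *Tgfb3* and *Ltbp1* to *Ltbp4* sit below theirs.

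FPKM, which divides fragments by gene length and by library total, allows levels to be compared between genes. In the WT-labelled libraries the order from high to low was *Ltbp3*, *Ltbp2*, *Ltbp4*, *Tgfbr2*, *Tgfb3*, *Tgfb1*, *Ltbp1*, *Tgfbr1*, *Tgfbr3* and *Tgfb2*, with mean levels from 94.6 down to 3.90 FPKM. Among neighbours in that order, only *Tgfbr1* and *Tgfbr3* overlapped between libraries. In the KO-labelled libraries *Tgfb1* came right behind *Ltbp3* and *Ltbp2* and ahead of *Ltbp4*, *Tgfbr2* and *Tgfb3*. There *Ltbp3* overlapped with *Ltbp2*, *Tgfb1* with *Ltbp4*, and *Ltbp4* with *Tgfbr2*. *Tgfb2* was the lowest of the 10 genes under both labels.

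*Tgfb1* encodes the ligand most often tied to fibrosis, and its record (ENSMUSG00000002603) spans chr7:25687002-25705077 on the plus strand of mm10. It was at 34.6, 32.4 and 32.8 FPKM in the KO-labelled libraries and at 21.1, 22.8 and 22.6 FPKM in the WT-labelled libraries. The lowest KO-labelled library lay well above the highest WT-labelled one. Among the KO-labelled libraries KO-1 was the highest and KO-2 the lowest, as they were for the endothelial marker *Pecam1* (81.5, 57.6 and 71.4 FPKM, against 4.68, 4.43 and 3.93 FPKM under the WT label), whose part in the rise was not tested. The log2 fold change was 0.55 (SE 0.05, adjusted p = 1.95e-04 from edgeR), a rise of 46.5%, and exceeded the change of 88.0% of all genes tested. Scaling the libraries so that the fibroblast markers kept a median ratio of 1 moved the median of all genes tested from -0.02 to 0.42 and the change of *Tgfb1* to 0.98. Over 15 alternatives of scaling, filter, tool and libraries its log2 fold change ranged from 0.51 to 0.98 and its adjusted p reached at most 0.00201.

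*Tgfb2* (ENSMUSG00000039239, chr1:186622792-186705989, minus strand) encodes the ligand that depends most on betaglycan. Its levels were 3.05, 2.93 and 3.06 FPKM under the KO label and 4.04, 3.97 and 3.70 FPKM under the WT label. All 3 KO-labelled values were below all 3 WT-labelled values, with a log2 fold change of -0.41 (SE 0.07, adjusted p = 0.00317 from edgeR). *Tgfb3* (ENSMUSG00000021253, chr12:86056744-86079041, minus strand), the third isoform, was at 20.0, 23.4 and 20.3 FPKM against 28.7, 27.7 and 26.6 FPKM. Its groups did not overlap either, although the library KO-2 stood above the other two, and its log2 fold change was also -0.41 (SE 0.07, adjusted p = 0.00414 from edgeR). Both falls lay within the range of the 15 fibroblast marker changes, -0.52 to -0.27. With fibroblast marker scaling the changes of *Tgfb2* and *Tgfb3* turned to 0.024 and 0.013, and neither passed (adjusted p = 0.846 and 0.887 from edgeR). The *Tgfb3* record shares 5150 bases with *Ttll5* on the opposite strand, and whether counting used strand is not given in the sources used here. *Ttll5* had on average 264 counts in the KO-labelled and 278 counts in the WT-labelled libraries.

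The stretches of 250 bases just upstream of the *Tgfb1* and *Tgfb2* starts are shown because these ligands moved in opposite directions. They are the RefSeq sequences of GRCm38.p6, at chr7:25686752-25687001 on the plus strand and chr1:186705990-186706239 on the minus strand, in 5′ to 3′ orientation. Capitals mark matches on either strand of the motifs named next. The GC box was searched as GGGCGG. For the promoter element bound by TBP, the TATA box, the letters searched were TATAAA. The CCAAT box was searched by its own letters.
*Tgfb1*: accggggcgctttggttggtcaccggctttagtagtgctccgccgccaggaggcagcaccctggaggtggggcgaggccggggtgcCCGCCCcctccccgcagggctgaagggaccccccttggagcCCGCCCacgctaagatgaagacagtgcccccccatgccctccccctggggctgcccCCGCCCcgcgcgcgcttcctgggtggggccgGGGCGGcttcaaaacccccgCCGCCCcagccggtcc
*Tgfb2*: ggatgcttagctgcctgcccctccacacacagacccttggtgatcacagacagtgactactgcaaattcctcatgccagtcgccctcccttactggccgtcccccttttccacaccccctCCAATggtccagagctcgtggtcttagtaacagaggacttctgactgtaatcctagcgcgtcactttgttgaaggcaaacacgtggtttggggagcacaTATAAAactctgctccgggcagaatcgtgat
The *Tgfb1* stretch was 75.2% G and C with 21 CG dinucleotides and held 5 GC boxes, but no TATA box and no CCAAT box. The *Tgfb2* stretch was 53.6% G and C with 8 CG dinucleotides, and it held a TATA box at 31 bases before the start and 1 CCAAT box, but no GC box. Among 32851 mouse promoter stretches of this length, GC boxes occurred in 32.7%, CCAAT boxes in 33.9% and TATA boxes in 12.4%, and the median stretch was 52.4% G and C with 6 CG dinucleotides. Neither stretch held the ATF/CRE motif (TGACGTCA) or the motif of AP-1 (TGANTCA), which occurred in 1.55% and 6.75% of all stretches. A match is a description of letters and not a site of binding.

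Shares within a library do not depend on how libraries are scaled to each other. *Tgfb1* made up 60.0%, 55.1% and 58.4% of the summed ligand FPKM in the KO-labelled libraries and 39.2%, 41.9% and 42.7% in the WT-labelled libraries. It was the largest ligand share in every KO-labelled library, whereas *Tgfb3* was the largest in every WT-labelled library. This order in the WT-labelled libraries rests on division by gene length, since in CPM *Tgfb1* was above *Tgfb3* there too (122, 132 and 131 CPM against 97.9, 95.0 and 91.1 CPM). The share of *Tgfb1* was 16.6 percentage points higher (57.9% ± 2.48 against 41.3% ± 1.83, SD, n = 3, two-sided exact permutation p = 0.1, the smallest that 3 against 3 libraries allow). The share of *Tgfb3* fell from 51.5% ± 1.59 to 36.9% ± 2.67 and that of *Tgfb2* from 7.26% ± 0.261 to 5.24% ± 0.233, each without overlap (SD, n = 3, exact p = 0.1). The summed ligand level was 57.7, 58.7 and 56.2 FPKM against 53.8, 54.5 and 52.9 FPKM, 1.07 times as high and without overlap (exact p = 0.1).

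**Figure D2:**
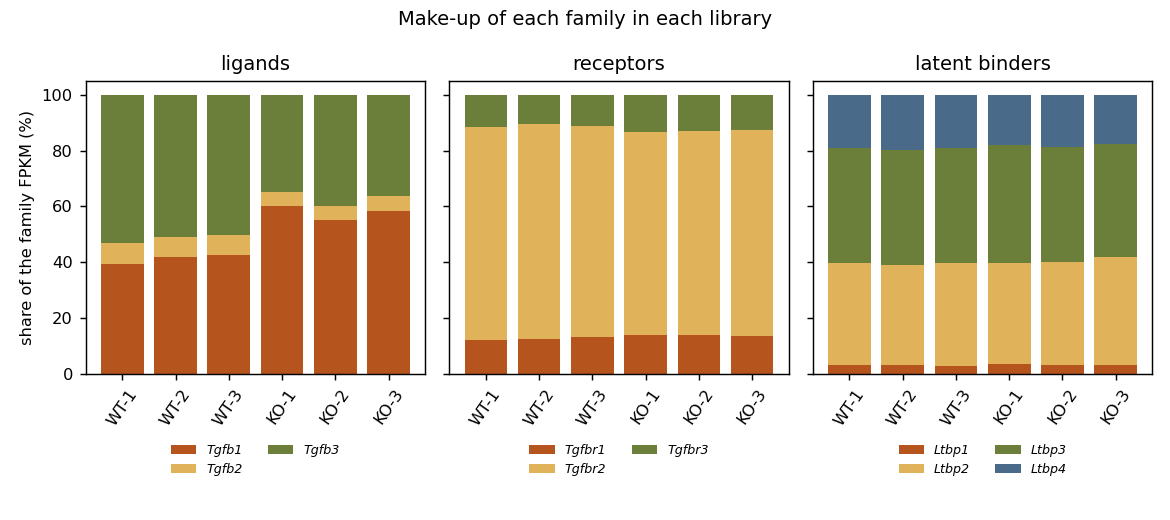
Stacked bars give each gene's share (%) of its family's summed FPKM in each of the 6 libraries, with the other *Ltbp4* record left out. *Tgfb1* takes 55.1% to 60.0% of the ligand sum in the KO-labelled libraries and 39.2% to 42.7% in the WT-labelled libraries, while the receptor and latent binder bars differ by at most 3.21 percentage points in their means.

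The ratio of *Tgfb1* to *Tgfb2* FPKM was 11.4, 11.1 and 10.7 in the KO-labelled libraries and 5.22, 5.74 and 6.11 in the WT-labelled libraries. The ratio of *Tgfb1* to *Tgfb3* was 1.73, 1.38 and 1.61 against 0.736, 0.824 and 0.850. In both ratios every KO-labelled library lay above every WT-labelled library, by 0.96 and 0.97 on the log2 scale. The ratio of *Tgfb3* to *Tgfb2* differed by -0.01 on the log2 scale, with overlapping libraries (exact p = 1). Such ratios were compared for 9 pairs of genes. For the 8 pairs without overlap the exact permutation p was 0.1, or 0.1125 after Benjamini-Hochberg adjustment over the 9 pairs, so none could pass 0.05 in this design.

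The receptor genes differed little between labels. *Tgfbr1* (ENSMUSG00000007613, chr4:47353222-47414931, plus strand), the type I receptor kinase, was at 5.39, 5.53 and 5.55 FPKM in the KO-labelled and 4.64, 4.92 and 5.48 FPKM in the WT-labelled libraries. The groups overlapped, with the library WT-3 at the KO level (log2 fold change 0.10, SE 0.07, adjusted p = 0.355 from edgeR). Leaving out WT-1 moved the change to 0.042 and leaving out WT-3 moved it to 0.16, and neither passed. *Tgfbr2* (ENSMUSG00000032440, chr9:116087698-116175363, minus strand), the type II receptor kinase, was the most abundant of the receptors, at 28.2, 29.1 and 30.4 FPKM against 29.5, 31.0 and 31.7 FPKM. Its groups overlapped too (log2 fold change -0.11, SE 0.05, adjusted p = 0.166 from edgeR).

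*Tgfbr3* (ENSMUSG00000029287, chr5:107106570-107289629, minus strand), the co-receptor, was at 5.10, 5.13 and 5.16 FPKM in the KO-labelled libraries and at 4.37, 4.18 and 4.72 FPKM in the WT-labelled libraries. The groups did not overlap, but the difference missed the threshold (log2 fold change 0.18, SE 0.07, adjusted p = 0.0840 from edgeR). It passed when libraries were scaled by total counts alone (0.21, adjusted p = 0.0484 from edgeR). All 3 receptor genes passed upward when fibroblast markers set the scaling, where 8891 of the 14084 genes tested did so, with log2 fold changes of 0.53, 0.32 and 0.61 for *Tgfbr1*, *Tgfbr2* and *Tgfbr3*.

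Within the receptor sum, *Tgfbr2* made up 72.8%, 73.2% and 73.9% in the KO-labelled libraries against 76.6%, 77.3% and 75.7% in the WT-labelled libraries. Its mean share was 3.21 percentage points lower, that of *Tgfbr1* was 1.34 points higher and that of *Tgfbr3* was 1.87 points higher, each without overlap (exact permutation p = 0.1). On the log2 scale, the ratio of *Tgfbr1* to *Tgfbr2* was 0.21 higher and that of *Tgfbr3* to *Tgfbr2* was 0.29 higher. The summed receptor level was 0.991 times that of the WT-labelled libraries, at 38.6 to 41.1 FPKM against 38.6 to 41.9 FPKM (exact p = 0.8).

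The latent binding protein genes were lower under the KO label. *Ltbp1* (ENSMUSG00000001870, chr17:75005568-75392512, plus strand) encodes a binder of all 3 latent ligands and was at 5.55, 5.88 and 5.81 FPKM against 6.60, 6.93 and 6.36 FPKM. The groups did not overlap, and the fall was the smallest of the 4 (log2 fold change -0.24, SE 0.06, adjusted p = 0.0145 from edgeR). It lost the threshold without the library WT-2 (-0.21, adjusted p = 0.0572 from edgeR). It also lost it in limma on log2(FPKM + 1) (-0.18, adjusted p = 0.0605) and on log2(FPKM + 0.1) (-0.20, adjusted p = 0.0570). Under fibroblast marker scaling its change was 0.19 in the upward direction (adjusted p = 0.0371 from edgeR), below the median of 0.42 for all genes tested. With TMM scaling, the *Ltbp1* fall was the only one of the 6 that lay outside the range of the fibroblast marker changes.

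*Ltbp2* (ENSMUSG00000002020, chr12:84783212-84876532, minus strand) encodes a protein of elastic fibres that, unlike the other family members, does not bind latent TGF-β. It was at 58.2, 67.3 and 69.7 FPKM in the KO-labelled libraries and at 81.2, 83.5 and 87.6 FPKM in the WT-labelled libraries. The library KO-1 was the lowest, and no KO-labelled library reached a WT-labelled one (log2 fold change -0.40, SE 0.07, adjusted p = 0.00367 from edgeR). *Ltbp3* (ENSMUSG00000024940, chr19:5740904-5758532, plus strand), a binder of latent TGF-β, had the highest level of the 10 genes, at 68.0, 75.6 and 72.5 FPKM against 90.4, 96.2 and 97.2 FPKM. Its groups were separate (log2 fold change -0.43, SE 0.06, adjusted p = 9.28e-04 from edgeR). The *Ltbp2* record shares 764 bases with *D030025P21Rik* on the opposite strand. The changes of *Ltbp2* and *Ltbp3* were 0.026 and 0.0029 with fibroblast marker scaling, and neither passed.

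*Ltbp4* (ENSMUSG00000040488, chr7:27305136-27337692, minus strand), which binds latent TGF-β1 weakly and organises elastic fibres, was at 28.8, 34.5 and 31.6 FPKM in the KO-labelled libraries and at 41.9, 45.5 and 45.0 FPKM in the WT-labelled libraries. This was the largest fall among the members, at 30.0% (log2 fold change -0.51, SE 0.07, adjusted p = 0.00133 from edgeR), and the groups were far apart. Fibroblast marker scaling reduced it to -0.09 (adjusted p = 0.215 from edgeR). The other *Ltbp4* record (ENSMUSG00000108715, chr7:27311715-27333604, minus strand) lies inside the former on the same strand, over 21890 bases, so that reads could be split between them and both values are uncertain. It was at 3.33, 3.20 and 2.14 FPKM against 2.78, 3.24 and 1.39 FPKM. Its groups overlapped (log2 fold change 0.18, SE 0.30, adjusted p = 0.676 from edgeR), and the sign turned to -0.10 without the library WT-3.

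**Figure D3:**
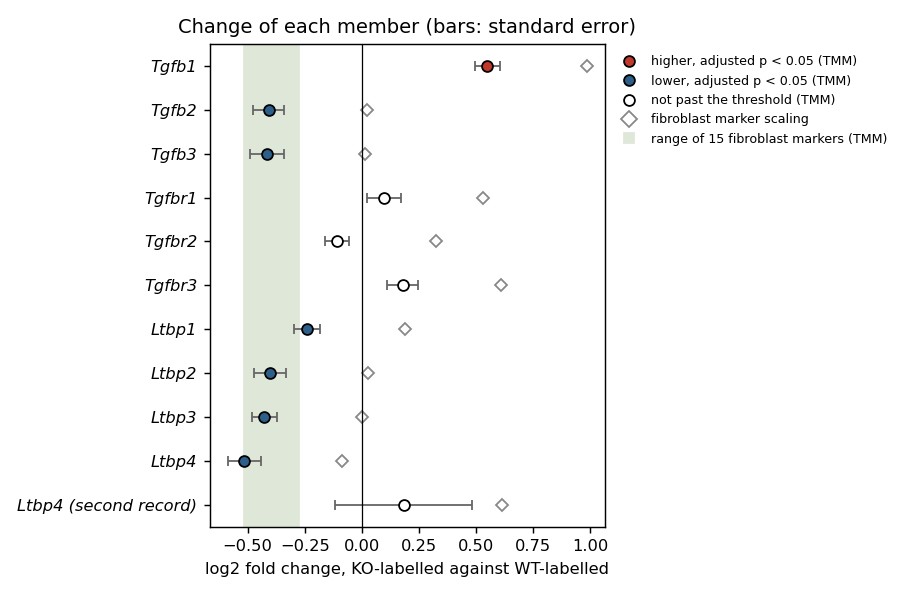
Log2 fold change of each record, KO-labelled against WT-labelled, with standard errors (TMM scaling), beside the value under fibroblast marker scaling (open diamonds). The shaded band spans the changes of 15 fibroblast markers, -0.52 to -0.27, and 5 of the 6 records that fell lie inside it, while *Tgfb1* lies at 0.55.

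The summed level of the 4 latent binder genes was 160.5, 183 and 180 FPKM in the KO-labelled libraries and 220.1, 232 and 236 FPKM in the WT-labelled libraries, 0.760 times as high and without overlap (exact permutation p = 0.1). Their make-up changed less than their sum. The share of *Ltbp3* differed by 0.0996 percentage points (exact p = 0.8) and that of *Ltbp2* by 0.615 points (exact p = 0.7), with overlapping libraries. The share of *Ltbp1* was 0.408 points higher and that of *Ltbp4* was 1.12 points lower, both without overlap (exact p = 0.1). The ratio of the ligand sum to the sum of *Ltbp1*, *Ltbp3* and *Ltbp4*, the members that bind latent ligand, was 0.564, 0.506 and 0.511 against 0.387, 0.367 and 0.356. It was 1.42 times as high under the KO label, and the groups did not overlap (exact p = 0.1). The ratio of *Tgfb1* to *Ltbp1* alone was higher by 0.79 on the log2 scale.

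The stretch upstream of *Ltbp1* is shown because it was the only one of 12 RefSeq entries, for 8 of the 10 genes, that held the ATF/CRE motif. It lies at chr17:75005279-75005528 on the plus strand of GRCm38.p6. Capitals mark the ATF/CRE motif and CCAAT boxes on either strand.
*Ltbp1*: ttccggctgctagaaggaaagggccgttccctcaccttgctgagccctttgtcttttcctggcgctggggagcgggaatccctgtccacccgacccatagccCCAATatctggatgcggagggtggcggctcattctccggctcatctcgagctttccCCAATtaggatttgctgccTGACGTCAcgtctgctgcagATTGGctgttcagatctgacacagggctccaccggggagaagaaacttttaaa
The ATF/CRE motif began 73 bases before the RefSeq start, and 3 CCAAT boxes were found. The stretch was 56.8% G and C with 12 CG dinucleotides, and it held no TATA box, GC box or AP-1 motif.

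Of 26 genes listed for roles around the storage and activation of TGF-β, 24 were tested, of which 16 fell, 3 rose and 5 did not pass (median log2 fold change -0.37), where 12.5% of all genes tested fell and 17.7% rose. The list was not limited to genes that promote storage or activation. *Fbn1*, the fibrillin that anchors latent complexes, was at 141, 166 and 168 FPKM against 192, 203 and 209 FPKM (log2 fold change -0.38, adjusted p = 0.00558 from edgeR). *Thbs1*, a matrix protein that can activate latent ligand, changed by -0.39 on the log2 scale (adjusted p = 0.00329). The largest falls were in the proteoglycan *Bgn* (-0.47), the protease *Htra1* (-0.47) and the integrin chain *Itgb5* (-0.45), while *Itgav*, its partner chain, fell by 0.22 (adjusted p = 0.0151), a call that was lost without the library WT-3. With fibroblast marker scaling *Itgav* passed in the upward direction (0.21, adjusted p = 0.0162), beside a median of 0.42 for all genes tested. *Itgb8* (-0.35, adjusted p = 0.146) and *Lrrc32*, which holds latent ligand on the cell surface (-0.26, adjusted p = 0.139), did not pass. Leaving out KO-2 moved *Itgb8* to -0.19, and leaving out WT-1 moved *Lrrc32* to -0.094.

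The 3 genes that rose in this list were far from the rest. *Plau*, the urokinase that generates plasmin, was at 195, 92.8 and 115 FPKM in the KO-labelled libraries and at 8.99, 8.75 and 9.20 FPKM in the WT-labelled libraries (log2 fold change 3.87, SE 0.26, adjusted p = 3.45e-05 from edgeR). *Itgb3*, an integrin chain that pairs with *Itgav*, was at 34.6, 21.1 and 25.4 FPKM against 3.35, 3.04 and 3.13 FPKM (log2 fold change 3.05, SE 0.17, adjusted p = 1.25e-05). *Nrros*, which tethers latent ligand on myeloid cells, was at 2.19, 1.66 and 2.04 FPKM against 0.628, 0.439 and 0.439 FPKM (log2 fold change 1.93, SE 0.17, adjusted p = 1.29e-04). For all 3, as for *Tgfb1* and *Pecam1*, KO-1 was the highest library and KO-2 the lowest of the KO-labelled ones. Whether this order of 3 libraries has a common source was not tested. Macrophage markers had a lower summed level under the KO label, 1322 to 1353 CPM against 1612 to 1721 CPM, with 2 of 14 tested markers passing upward and 6 downward. Of all genes tested, 17.7% passed upward and 12.5% downward. Platelet markers had a summed level of 33.2 to 47.4 CPM against 6.43 to 9.61 CPM, with 3 of 4 tested markers passing upward, and *Gp6* was at 0 in all libraries. The part of these cell types in the 3 rises was not tested.

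Of the 11 partners of the receptors, 3 rose, 1 fell and 7 did not pass (median log2 fold change 0.13), beside 17.7% of all genes tested that rose and 12.5% that fell. The rises were in *Dab2*, an endocytic adaptor that binds the receptors and SMADs (1.32, adjusted p = 7.65e-05 from edgeR), and the co-receptors *Nrp2* (0.79, adjusted p = 2.86e-04) and *Nrp1* (0.46, adjusted p = 4.87e-04). *Dab2* was at 27.2, 19.5 and 22.0 FPKM against 9.14, 9.01 and 8.76 FPKM. *Cd109*, a surface protein that restrains signalling, fell (-0.27, adjusted p = 0.00701) but passed upward with fibroblast marker scaling (0.16, adjusted p = 0.0396). The median of all genes tested was 0.42 under that scaling. The co-receptor *Eng* (-0.02, adjusted p = 0.773) and the alternative type I receptor *Acvrl1* (-0.15, adjusted p = 0.652) did not pass.

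The SMAD list held 20 genes, of which 19 were tested, 3 rose, 5 fell and 11 did not pass (median log2 fold change -0.05). The count that rose is near the 17.7% of all genes tested, and 12.5% of these fell. The signal carriers *Smad2* (0.02), *Smad3* (0.02) and *Smad4* (-0.05) had adjusted p of 0.869, 0.807 and 0.641 from edgeR. The feedback inhibitors *Smad7* (-0.43, adjusted p = 0.0105), *Skil* (-0.31, adjusted p = 0.0117), *Pmepa1* (-0.50, adjusted p = 0.00112) and *Ldlrad4* (-0.40, adjusted p = 0.00800) fell. *Skil* lost the threshold in limma on log2(FPKM + 1) (-0.20, adjusted p = 0.0620) and on log2(FPKM + 0.1) (-0.27, adjusted p = 0.0621). Rises were found for the ubiquitin ligases *Nedd4l* (0.52, adjusted p = 0.0120) and *Trim33* (0.21, adjusted p = 0.0468) and the acetyltransferase *Ep300* (0.25, adjusted p = 0.0100). The call of *Trim33* was lost without 5 of the 6 libraries in turn (0.18 to 0.24 on the log2 scale), and only leaving out KO-2 kept it.

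Among 20 genes of the SMAD-independent kinase branch, 3 rose, 3 fell and 14 did not pass (median log2 fold change 0.03), a share near the 30.2% of all genes tested that passed in either direction. The rises within the naming rule were in the kinases *Mapk3* (0.23, adjusted p = 0.0241 from edgeR) and *Rock2* (0.22, adjusted p = 0.0140). *Mapk3* lost the threshold without KO-1, WT-1 or WT-3 (0.18 to 0.24), and *Rock2* without WT-1 or WT-3 (0.20 and 0.21). The third rise, *Map2k6*, was named after its values were seen, since it lay below the minimum level (1.53 against 0.317 FPKM, log2 fold change 2.23, adjusted p = 3.68e-04). *Traf4* (-0.40, adjusted p = 0.00301), *Akt1* (-0.22, adjusted p = 0.00845) and *Map2k4* (-0.19, adjusted p = 0.0285) fell. *Map2k4* lost the threshold without each library in turn except WT-3. With fibroblast marker scaling *Akt1* (0.21, adjusted p = 0.00664 from edgeR) and *Map2k4* (0.24, adjusted p = 0.0175) passed in the upward direction. Both were below the median of 0.42 for all genes tested.

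Of 37 records of genes that TGF-β is known to induce, 35 were tested, of which 29 fell, 1 rose and 5 did not pass (median log2 fold change -0.42). Of all genes tested, 12.5% fell and 17.7% rose, and the list includes fibroblast markers. *Ctgf*, a matricellular protein, was at 384, 469 and 425 FPKM in the KO-labelled libraries and at 563, 602 and 575 FPKM in the WT-labelled libraries (log2 fold change -0.48, SE 0.07, adjusted p = 0.00200 from edgeR). *Tgfbi*, a collagen-binding matrix protein, changed by -0.42 (adjusted p = 0.00230), and *Cdkn2b*, an inhibitor of the cell cycle, had the largest fall (-0.54, adjusted p = 0.00211). The only rise was in *Klf10*, an early response transcription factor, at 21.5, 19.8 and 22.3 FPKM against 10.2, 12.4 and 11.5 FPKM (0.86, adjusted p = 2.44e-04).

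Under fibroblast marker scaling none of the 105 tested pathway genes passed downward and 52 passed upward, against 50 downward and 13 upward with TMM scaling. Of all 14084 genes tested, 8891 passed upward and 36 downward under this scaling, so the upward share of the pathway genes was below that of all genes. The medians of the storage and activation list and of the TGF-β-induced list were then 0.06 and 0.01, and that of the partners of the receptors was 0.56, beside 0.42 for all genes tested. Some markers that set this scaling are in the lists, *Dcn* in the storage list and *Col1a1*, *Col1a2*, *Col3a1* and *Postn* in the TGF-β-induced list. The medians of these lists are therefore in part fixed by the scaling.

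**Figure D4:**
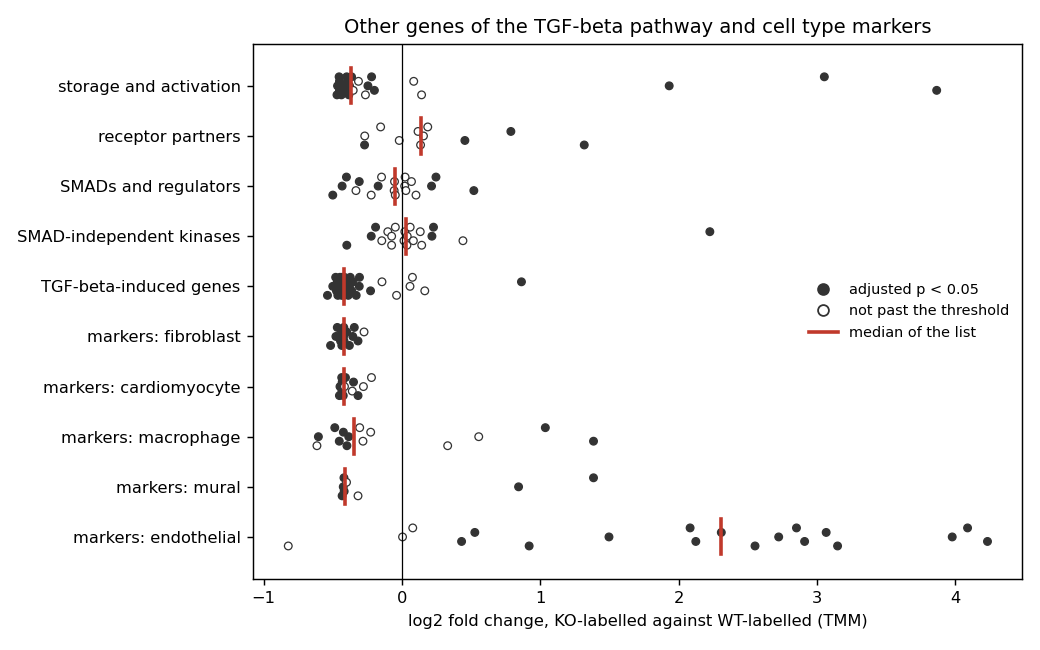
Log2 fold change (TMM scaling) of each tested gene in 5 pathway lists and 5 marker lists, with filled points past an adjusted p of 0.05 and a red bar at each median. The storage and TGF-β-induced lists have medians of -0.37 and -0.42, beside -0.42 for the fibroblast markers, some of which these lists also hold. The endothelial markers have a median of 2.31.

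As a description, the 11266 genes with a mean level of at least 1 FPKM were ranked by the likeness of their profile over the 6 libraries to each ligand. The genes most like *Tgfb1* were *Pgf* (Pearson r = 0.999), *Eno1b* (0.998) and *Prss16* (0.998). Those most like *Tgfb2* were *Utp6* (0.997), *Gm42487* (0.994) and *Scamp3* (0.993), and those most like *Tgfb3* were *Pcsk6*, *Ankrd1* and *Itga11* (each 0.998). The points are 6 libraries that share the difference between labels, and nothing is read from the order of genes with such similar values.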

How the data were processed

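Libraries were made with a strand-specific kit. Per the labels and the study's methods, the authors aligned reads to mm10 (GRCm38.p4) with HISAT2 and deposited a table with counts per gene and FPKM for 3 KO-labelled and 3 WT-labelled libraries. The deposited FPKM equalled counts divided by library total and a gene length (within a share of 7.8e-04). Versions and the strand setting of counting are not given in the sources used here. The members and lists were chosen with earlier results of these data known.

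Counts were analysed with edgeR 4.0.16 (R 4.3.3; filterByExpr, TMM, glmQLFit, glmQLFTest, two-sided, Benjamini-Hochberg over the 14084 of 34745 genes tested, threshold 0.05), and the script was tested on simulated data. The SE given for edgeR was derived as the absolute log2 fold change over the square root of the test's F statistic. The common coefficient of variation was 10.9%. A floor of 3 counts was 0.196 to 0.249 CPM, and intervals on counts would cover counting error only. FPKM shares and ratios were compared by exact permutation tests. Replicate pairs within a label differed in 22.4% to 31.7% of genes at an unadjusted p of 0.05, more than sampling noise gives. Same-numbered libraries had correlations of 0.00211, 0.00318 and 0.0347 in their deviations and were not treated as pairs. As alternatives, the fit was repeated with all genes, with a minimum mean of 1 CPM, with DESeq2 1.42.0, with scaling by library size, by the upper quartile or on 15 fibroblast markers, with limma 3.58.1 on log2(FPKM + 1) and log2(FPKM + 0.1), with a replicate block, with a required fold change above 2 and without each library.

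Named were all members, pathway genes fixed by role (such as *Smad2* and *Fbn1*; 1 fixed gene is not reported here), up to 3 rises and 3 falls per list past the threshold with a mean of at least 1 FPKM and no overlap, and the 3 genes most like each ligand. Promoter stretches came from RefSeq (GRCm38.p6, 250 bases upstream, both strands searched), with entries for 8 of the 10 member genes. Cardiomyocyte markers (13 of 14 tested, 9 lower, median log2 fold change -0.42), mural markers (8 of 9 tested, 4 lower and 2 higher), mesothelial markers (7 tested, 6 lower and 1 higher) and neutrophil markers (3 of 6 tested, 2 higher) also moved with the label. Of all genes tested, 12.5% were lower and 17.7% higher past the threshold. No lymphocyte marker of 11 was tested, and 7 were at 0 in all libraries.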

Additional observations from a re-analysis of the deposited data

How the results depend on the processing

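The rise of *Tgfb1* passed under all 15 alternatives of scaling, filter, tool and libraries, and the falls of *Tgfb2*, *Tgfb3*, *Ltbp2*, *Ltbp3* and *Ltbp4* passed under 14 of them, the exception being fibroblast marker scaling. Precision is limited by 3 libraries per label. When a fold change above 2 was also required, members higher went from 1 to 0, members lower from 6 to 0, pathway genes higher from 13 to 5 and pathway genes lower from 50 to 0. Under library size, 2 members were higher. Fibroblast marker scaling gave 5 members higher and 0 lower, and 52 pathway genes higher and 0 lower. Under it 8891 of all 14084 genes tested were higher and 36 lower. Leaving out each library gave 1 to 1 members higher, 5 to 6 lower, 10 to 14 pathway genes higher and 45 to 48 lower.

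The share of *Ltbp2* ranged from -0.150 to 1.11 percentage points when a library was left out, turning negative without KO-3. That of *Ltbp3* ranged from -0.412 to 0.573, turning negative without KO-1, and was -0.0369 from CPM without gene length. The *Tgfb3* to *Tgfb2* log2 ratio ranged from -0.10 to 0.041. The cause was not tested.

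With fibroblast marker scaling, the log2 fold changes that turned upward were 0.024 for *Tgfb2*, 0.013 for *Tgfb3*, 0.32 for *Tgfbr2*, 0.19 for *Ltbp1*, 0.026 for *Ltbp2*, 0.0029 for *Ltbp3*, 0.28 for *Acvrl1*, 0.21 for *Akt1*, 0.031 for *Traf4*, 0.38 for *Smad4*, 0.025 for *Ldlrad4*, 0.087 for *Itgb8*, 0.41 for *Eng*, 0.21 for *Itgav*, 0.049 for *Fbn1*, 0.12 for *Skil*, 0.24 for *Map2k4*, 0.0074 for *Tgfbi*, 0.035 for *Thbs1*, 0.16 for *Cd109* and 0.16 for *Lrrc32*. Leaving out a library in turn gave -0.10 to 0.43 for the other *Ltbp4* record, -0.47 to 0.018 for *Acvrl1*, -0.083 to 0.019 for *Smad4*, -0.033 to 0.078 for *Smad2*, -0.022 to 0.071 for *Smad3* and -0.031 to 0.015 for *Eng*. Upper quartile scaling turned *Smad2* to -0.022 and *Smad3* to -0.019. *Eng* was 0.015 with library size and 0.013 and 0.014 in limma with pseudocounts of 1 and 0.1. *Trim33* also lost the threshold with no filter, DESeq2, upper quartile and limma (0.17 to 0.24), and *Map2k4* with no filter, DESeq2, library size and limma (-0.19 to -0.14). In the SMAD list, limma called 3 genes lower in place of 5. Of all genes tested, 8891 were higher and 36 lower with fibroblast marker scaling, 844 and 38 with a fold change above 2, and 1131 lower without KO-3, against 2488 and 1760.

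The replicate block kept 1 member higher and 6 lower, with 12 pathway genes higher and 49 lower. It lost *Trim33* (0.21, adjusted p = 0.0822 from edgeR) and *Map2k4* (-0.19, adjusted p = 0.0535 from edgeR). For shares and ratios, the mean difference between same-numbered libraries equals the difference of means by arithmetic, so its agreement is no check. For the *Tgfb1* share, the exact sign-flip p over same-numbered libraries was 0.25. In single lists, the genes called lower numbered 28 in place of 29 in the TGF-β-induced list and 17 in place of 16 in the storage and activation list.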
